A study of Nothobranchius furzeri with 185 samples.

Results

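A set of 5 cytosolic heat shock chaperone genes of the turquoise killifish (Nothobranchius furzeri, a short-lived annual fish) was followed through liver, skin, brain and fin. They are hsp70.1, hspa4a, hspa4b, hsp90aa1.2 and hspb1. Each symbol occurred at 1 locus of the deposited gene table, which gave 5 loci of 23564, and every one of them passed the filter on low counts in every comparison. The identifiers are Nfu_g_1_014930 for hsp70.1, Nfu_g_1_005172 for hspa4a, Nfu_g_1_004432 for hspa4b, Nfu_g_1_012354 for hsp90aa1.2 and Nfu_g_1_022143 for hspb1. The deposited annotation linked hsp70.1 to 4 zebrafish genes, hspa4a, hsp90aa1.2 and hspb1 to 2 each and hspa4b to 1. These numbers count zebrafish genes and not killifish copies. Reads of near-identical copies may have been exchanged for any of the 5 genes, which was not tested.

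RNA-seq libraries were made from 185 samples in 3 arms. Rotenone (15 pM, 4 weeks from the age of 23 weeks) was given to 5 fish that were sampled at 27 weeks, and 5 fish of 27 weeks and 5 of 9 weeks were kept for the same 4 weeks in vehicle (DMSO) from 23 or 5 weeks, with brain, liver and skin taken from each of these 15 fish. Rotenone blocks complex I of the mitochondrial respiratory chain. Untreated fish of 5, 12, 20, 27 and 39 weeks gave liver or skin, 5 libraries per tissue and age, and 12 of these fish gave both tissues. Fin clips came from 45 untreated fish, clipped at the ages of 10 and 20 weeks and kept until they died, at 28.7 to 36.4 weeks in 15 short-lived, 45.1 to 50.3 weeks in 15 middle and 57.3 to 71.9 weeks in 15 long-lived fish. Strain and sex were not given in the labels used here, and no genotype other than the species was named.

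Heat shock chaperones keep other proteins soluble and help them fold. HSP70 proteins bind exposed stretches of unfolded proteins in cycles driven by ATP, HSP110 proteins release the nucleotide from HSP70 so that a cycle can start again, HSP90 proteins take over kinases, receptors and other clients from HSP70, and small heat shock proteins hold unfolding proteins until the HSP70 machine takes them up. Many of these genes carry heat shock elements and are switched on by heat shock factor 1 when unfolded proteins accumulate, whereas their constitutive relatives are made in every cell.

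Libraries held between 14970721 and 54947376 counts. Most libraries had the tissue markers of their labels. The mean log2 CPM of 14 hepatocyte loci was 9.73 to 13.19 in livers, 8.89 in the skin of the 12-week fish JM109 and at most 5.50 elsewhere, that of 12 neuron loci 6.56 to 7.32 in brains and at most 0.16 elsewhere, and that of 9 keratinocyte loci 5.95 to 7.76 in skins, 6.39 to 8.31 in fins and at most 4.86 elsewhere. Summed CPM of the hepatocyte list was 17309 in that skin, against 156.4 to 193.9 in the other 12-week skins. Summed over 13 testis germ cell loci, the rotenone skin of MR30 and the vehicle skin of MC7 held 1768 and 912.9 CPM and no other skin more than 20.91. Summed over 9 ovary, yolk and chorion loci, the 5-week liver of JM103 held 89064 CPM and no other untreated liver more than 119.7. That list joins egg coat, oocyte and vitellogenin (yolk precursor) genes, which the sum does not separate, so it does not show ovary tissue in this liver. A difference is called a change where edgeR's quasi-likelihood test gave it a Benjamini-Hochberg adjusted p under 0.05 over all genes tested. Overlap of ranges was read for the named genes and lists only, so the share of all genes without overlap is not known. Fold changes are log2 values ± standard error, positive when the older or treated fish are higher. The standard error was derived from the test, as the absolute log2 value divided by the square root of its F statistic. CPM are counts relative to library size after TMM scaling within a tissue and arm. In whole tissue, fewer cells of a type and less RNA per cell cannot be told apart.

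By group median per unit length, hspb1 had its highest levels in skin, hsp90aa1.2 in brain and in some livers, and hsp70.1 stayed low. Levels are given as deposited RPKM (reads per kilobase of gene, scaled to library size). The gene lengths behind them were 597 bases for hspb1, 2675 for hsp70.1, 3765 for hspa4b, 3808 for hspa4a and 7493 for hsp90aa1.2. Levels of different genes depend on these lengths and may depend on reads shared with near copies, which was not tested. On this scale hspb1, a small heat shock protein that also binds actin filaments, had group medians of 54.2 to 156.3 in the 8 skin groups. They were 24.0 to 45.0 in the 3 brain groups, 19.7 to 27.2 in the 6 fin groups and 1.47 to 14.8 in the 8 liver groups. The median of hspb1 was highest in skin at 39 weeks and lowest in liver at 9 weeks in vehicle. For hsp90aa1.2, an inducible form of cytosolic HSP90, median RPKM was 65.6 to 92.2 in brain, 16.5 to 38.4 in fin, 14.3 to 50.6 in skin and 1.35 to 92.2 in liver. The liver range of hsp90aa1.2 thus spanned that of all tissues, with its lowest median at 12 weeks and its highest at 39 weeks. Single skins reached more, up to 414.3 RPKM at 5 weeks and 254.2 RPKM at 39 weeks, above the highest liver (226.6) and the highest brain (100.8).

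The HSP110-type genes had closer levels. Median RPKM of hspa4b was 36.4 to 50.6 in brain, 27.2 to 45.0 in fin, 10.3 to 46.8 in liver and 9.81 to 40.5 in skin, and that of hspa4a was 19.1 to 29.6 in brain, 12.7 to 24.7 in fin, 2.17 to 31.5 in liver and 2.21 to 21.1 in skin. Both genes encode exchange factors of cytosolic HSP70, and the median RPKM of hspa4b was above that of hspa4a in each of the 25 groups. The gene hsp70.1, which the deposited annotation describes as a 70-kd heat shock cognate from a tandem duplication, had low levels, with median RPKM of 3.82 to 9.82 in brain, 1.36 to 4.07 in fin, 0.91 to 6.94 in liver and 0.44 to 3.6 in skin. When the 25 groups were ordered by median RPKM, all 24 neighbouring pairs overlapped in range for each of the 5 genes, so the order of neighbours is within the spread of the fish.

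**Figure D1:**
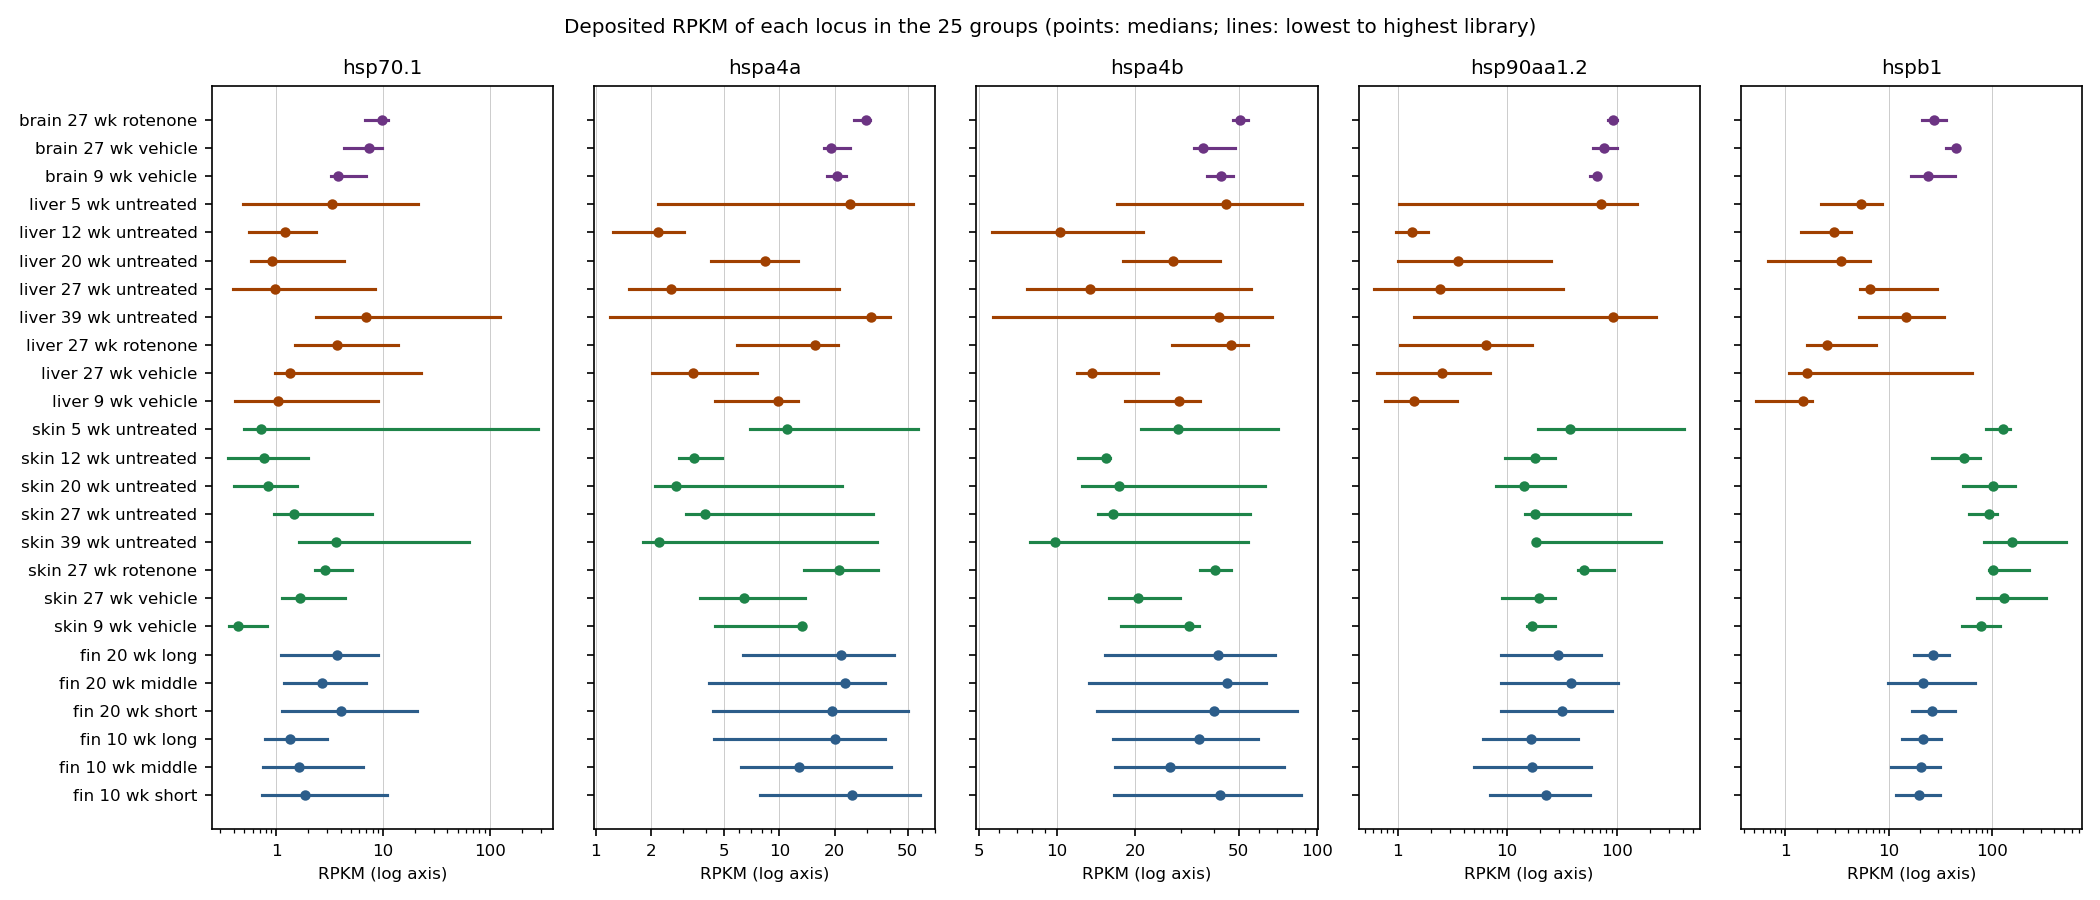
Deposited RPKM (log scale) of the 5 chaperone genes in all 25 groups, with a point at the group median, a line from the lowest to the highest library and colours for tissues. Medians of hspb1 are highest in skins and lowest in livers, and hsp90aa1.2 reads from 0.61 to 226.6 RPKM among untreated livers.

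Young vehicle fish gave the direct comparison of tissues, because the same 5 fish of 9 weeks supplied brain, liver and skin. On CPM scaled jointly over the 15 libraries, hspb1 was 6.61, 13.9, 16.0, 5.93 and 8.42 in brains, against 1.30, 0.553, 1.81, 0.833 and 1.56 in livers, while the skins of these fish had 64.4, 69.0, 49.2, 30.1 and 29.6 CPM. No 2 of these 3 ranges overlapped. With fish as block, log2 hspb1 was higher by 3.00 ± 0.34 in brain than in liver (adjusted p = 4.03e-06), by 5.29 ± 0.36 in skin than in liver (6.55e-08) and lower by -2.28 ± 0.29 in brain than in skin (1.61e-05).

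For hsp90aa1.2, brains held 253.0 to 304.0 CPM, skins 108.3 to 194.0 CPM and livers 10.2 to 43.7 CPM, again without overlap, and the log2 differences were 3.77 ± 0.27 for brain over liver (adjusted p = 6.83e-08), 2.76 ± 0.26 for skin over liver (1.43e-06) and 1.00 ± 0.24 for brain over skin (0.00262). For hsp70.1, brains held 5.10 to 11.2 CPM and skins 0.900 to 2.098 CPM, a log2 difference of 2.46 ± 0.56 (adjusted p = 0.00161), while livers ranged from 1.94 to 39.9 CPM and overlapped both. In each fish, however, hsp70.1 was higher in liver than in skin. With fish as block its log2 difference was -2.64 ± 0.60 for skin against liver (adjusted p = 0.00195) and -0.18 ± 0.55 for brain against liver (0.773). Of the 5 genes, 3 were called between brain and liver, 4 between skin and liver and 3 between brain and skin, where the same tests called 79.3%, 64.3% and 75.9% of all genes.

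The HSP110-type genes depended on how tissues were scaled. On the TMM scale log2 hspa4b was -0.78 ± 0.17 for brain against liver (adjusted p = 0.00105) and -0.63 ± 0.17 for skin against liver (0.00593), whereas scaling to total counts, an alternative chosen after the data were seen, gave 0.68 (0.00305) and 0.12 (0.54). The deposited RPKM, which carry no TMM factor, had medians of 42.8 in brain, 32.1 in skin and 29.4 in liver for hspa4b. For hspa4a the TMM values were -0.22 and -0.48 and those on total counts 1.25 and 0.28, and without MC1 the TMM values passed (-0.52, adjusted p = 0.00538, and -0.49, adjusted p = 0.00867). No direction between these tissues is therefore given for hspa4a and hspa4b. For hsp90aa1.2 and hspb1 the direction was the same on both scales in all 3 tissue pairs, as it was for hsp70.1 between brain and skin and between skin and liver.

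In the arm that gave all 3 tissues, fish of a group differed more in liver and in skin than in brain for each of the 5 genes, though by little between skin and brain for hsp70.1. Within groups, the SD of log2 CPM of hsp90aa1.2 was 2.16 in untreated livers, 1.42 in untreated skins, 1.06 in livers and 0.48 in skins of the vehicle and rotenone arm, 1.01 in fins and 0.21 in brains. The same SD was 1.55, 2.19, 1.54, 0.55, 0.78 and 0.45 for hsp70.1, and 1.39, 1.36, 0.61, 0.58, 0.90 and 0.17 for hspa4a. For hspa4b it was 0.84, 0.84, 0.32, 0.31, 0.67 and 0.18, in the same order. For hspb1 the SD was widest in livers of the vehicle and rotenone arm (1.65), followed by untreated livers (0.89), skins of that arm (0.72), untreated skins (0.66), fins (0.50) and brains (0.42).

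The 12 untreated fish with both tissues, 2 of 5 weeks, 1 of 12, 2 of 20, 3 of 27 and 4 of 39 weeks, were examined fish by fish. The fish named here were picked after their values were seen, so that no test is attached. In 5 of them, hspa4a was high in both tissues, with 109.5 CPM in liver and 166.9 CPM in skin of JM1 (39 weeks), 80.3 and 90.2 CPM in JM15 (39 weeks), 69.3 and 101.0 CPM in JM83 (27 weeks), 72.7 and 94.5 CPM in JM100 (5 weeks) and 45.3 and 79.1 CPM in JM79 (20 weeks). In the other 7 fish hspa4a stayed between 5.68 and 14.9 CPM in liver and between 8.88 and 27.5 CPM in skin, so that the 2 sets of values were apart in both tissues. The same 5 fish had 106.2 to 180.8 CPM of hspa4b in liver and 146.8 to 263.1 CPM in skin, against 26.0 to 81.9 CPM in liver and 39.0 to 82.1 CPM in skin of the other 7.

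For hsp90aa1.2 4 of these 5 fish stood apart. Livers held 777.0 CPM in JM1, 1138 CPM in JM15, 209.3 CPM in JM83 and 349.4 CPM in JM100, and their skins 2452, 1784, 827.1 and 886.1 CPM. JM79 had 16.0 CPM in liver, inside the range of the other 7 fish (6.99 to 21.3 CPM), and 239.6 CPM in skin, where the others had 71.1 to 148.9 CPM. For hsp70.1 only the oldest 2 of the 5 were far above the rest, JM1 with 137.8 CPM in liver and 220.6 CPM in skin and JM15 with 223.0 and 203.6 CPM, while no other of the 12 fish passed 19.4 CPM in either tissue. For hspb1 JM1 and JM15 had 12.4 and 13.7 CPM in liver, and in skin 65.2 and 132.4 CPM, below the 395.0 CPM of JM24, which gave no liver.

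**Figure D2:**
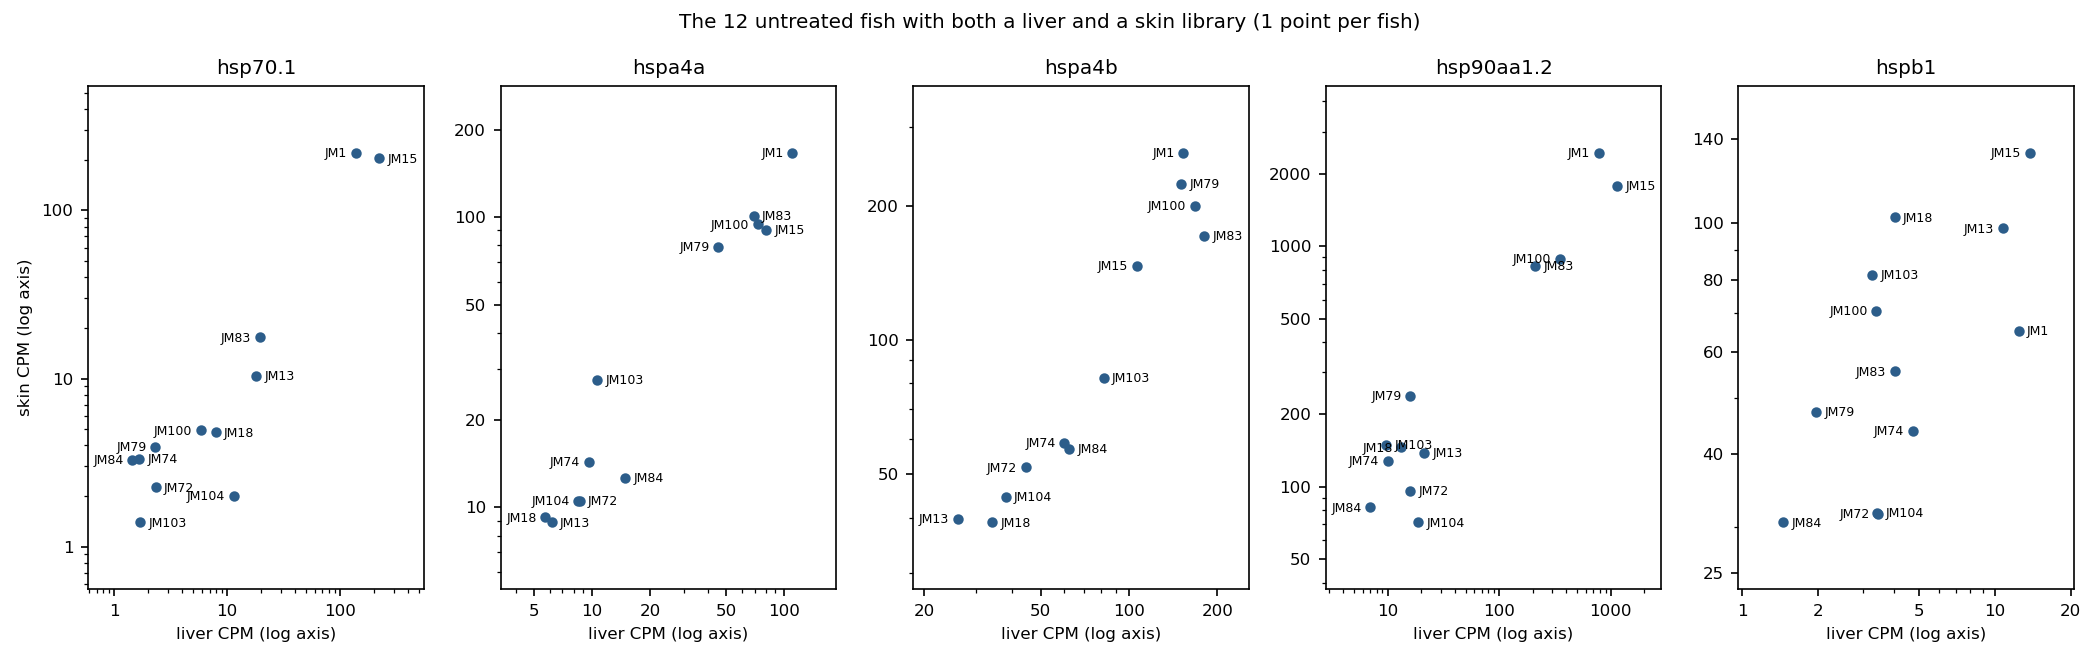
CPM in skin against CPM in liver (both log scales) for the 12 untreated fish that gave both tissues, 1 panel per gene and 1 labelled point per fish. For hspa4a and hspa4b JM1, JM15, JM83, JM100 and JM79 lie high on both axes and the other 7 fish low on both.

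At 39 weeks the split of the livers followed the hepatocyte list. Summed over 15 loci, of which hpx had no read at this age, the livers of JM1, JM12 and JM15, which were high in hsp90aa1.2, hspa4a and hspa4b, held 31258, 85644 and 47246 CPM, against 171020 and 256586 CPM in JM13 and JM18, which were low in these genes. At 27 weeks JM61 and JM83, the 2 livers highest in hsp90aa1.2, held 80276 and 85082 CPM, against 137010 to 254028 CPM in the other 3. At 20 weeks JM75, the liver highest in hsp90aa1.2, held the lowest sum (51939 CPM), and JM79, the highest in hspa4a and hspa4b, the highest sum (159855 CPM).

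At 5 weeks the order was not kept, since the hepatocyte sum was 54495 CPM in JM100, 157302 in JM101, 292869 in JM97 and 179954 in JM98, all high in hsp90aa1.2, and 185094 CPM in JM103, which was low. Summed over 20 muscle loci, the liver of JM15 held 2444 CPM and that of JM1 33.8 CPM. The part of these markers in the chaperone values was not tested.

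In untreated liver, hsp90aa1.2, hspa4a and hspa4b were lower at 12 than at 5 weeks. For hsp90aa1.2 the 12-week livers had 18.8, 11.5, 20.4, 13.7 and 7.16 CPM, against 349.4, 996.2, 9.73, 372.5 and 596.9 CPM at 5 weeks. All 12-week livers were low, 4 of 5 livers of 5 weeks were far above them and 1, from JM103, the liver with 89064 CPM of ovary, yolk and chorion loci, was as low as they were. The log2 change was -5.02 ± 1.27 (adjusted p = 0.0128). For hspa4b 12-week livers had 37.9, 46.6, 56.0, 44.7 and 79.4 CPM, against 167.6, 289.0, 81.9, 142.7 and 162.6 CPM at 5 weeks, without overlap (-1.67 ± 0.52, adjusted p = 0.0357). For hspa4a 12-week livers had 8.46 to 15.7 CPM, against 10.6 CPM in JM103 and 29.0 to 179.1 CPM in the other 4 livers of 5 weeks (-2.78 ± 0.82, adjusted p = 0.0276). Without JM103 the values were -5.37 for hsp90aa1.2, -1.86 for hspa4b and -3.09 for hspa4a, with the same 3 calls.

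The fall of 3 of 5 genes, with 0 higher, compares with 13.5% of 17618 genes called in either direction, and the median of the 5 log2 changes was -1.67, against 0.00 for all genes. Values for hsp70.1 (-1.62 ± 0.94, adjusted p = 0.264) and hspb1 (-0.37 ± 0.52, adjusted p = 0.699) did not pass. The calls of hspa4a and hspa4b were lost without JM101 (adjusted p = 0.0932 and 0.111), JM98 (0.0507 and 0.0618), JM104 (0.0738 and 0.0964), JM105 (0.06 and 0.074), JM106 (0.0511 and 0.075) or JM107 (0.0599 and 0.0794), and that of hspa4b also without JM100 (0.06), while hsp90aa1.2 stayed called in each of these cases.

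The 39-week livers split into high and low fish. For hsp90aa1.2 they had 777.0, 598.8, 21.3, 1138 and 13.3 CPM in JM1, JM12, JM13, JM15 and JM18, so that 3 were far above every 12-week liver and 2 were close to them. For hspa4a the same fish had 109.5, 105.6, 6.16, 80.3 and 5.68 CPM, and for hspa4b 153.1, 219.3, 26.0, 106.2 and 34.0 CPM, with the same 3 fish high. For hsp70.1 they had 137.8, 16.1, 18.01, 223.0 and 7.89 CPM, where JM12 was not among the high ones.

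Against the 5-week livers, edgeR called 0 of 5 genes at 39 weeks, where 12.0% of all genes were called. Unadjusted p values under 0.05 belonged to 2 of them, hsp70.1 (2.32 ± 0.95, adjusted p = 0.112) and hspb1 (1.57 ± 0.53, adjusted p = 0.0526), and to 27.6% of all genes. DESeq2 called these 2 members. By edgeR hsp70.1 was called without JM101 (3.41, adjusted p = 0.0401), and hspb1 without JM12 (1.83, 0.0267) or JM18 (1.78, 0.0395). Against the 12-week livers, edgeR called 0 of the 5 genes and 0% of all genes, although 3026 of 17618 genes had an unadjusted p under 0.05. The log2 values between 39 and 12 weeks were 5.16 ± 1.28 for hsp90aa1.2, 3.95 ± 1.03 for hsp70.1, 2.47 ± 0.81 for hspa4a, 1.94 ± 0.54 for hspb1 and 1.03 ± 0.51 for hspa4b, with adjusted p between 0.103 and 0.303. Of these 5, 4 had an unadjusted p under 0.05 and these 4 were called by DESeq2. The shares of all genes that DESeq2 called at 39 against 5 and against 12 weeks are not given here. Without JM18 hsp90aa1.2 was also called by edgeR (5.51, adjusted p = 0.0459).

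The middle ages had mostly low values of hsp90aa1.2, with JM75 standing out at 20 weeks and JM61 and JM83 at 27 weeks. At 20 weeks hsp90aa1.2 was 121.8, 16.0, 26.4, 6.99 and 21.2 CPM in JM75, JM79, JM82, JM84 and JM85, and at 27 weeks it was 61.9, 6.14, 16.0, 10.0 and 209.3 CPM in JM61, JM69, JM72, JM74 and JM83. JM83 also had the highest hspa4a and hspa4b of the 27-week livers, while at 20 weeks JM79 and not JM75 led for these 2 genes. Livers of 20 weeks were not mostly low in these 2 genes. They had 13.7 to 45.3 CPM of hspa4a (median 27.5), where the highest 12-week liver had 15.7 CPM. For hspa4b they had 59.0 to 150.9 CPM (median 80.9), where the highest 12-week liver had 79.4 CPM. The 27-week medians were 9.57 CPM for hspa4a and 44.4 CPM for hspa4b. Over all 5 ages 3 genes differed, hsp90aa1.2 (adjusted p = 0.0117), hsp70.1 (0.00467) and hspb1 (0.019), against 12.9% of all genes. Without JM1 and JM15, an alternative chosen after the data were seen, hsp90aa1.2 was still called (0.0297) and hsp70.1 (0.154) and hspb1 (0.0914) were not. The gene hspa4a passed without JM83 (adjusted p = 0.0132), JM13 (0.0391) or JM18 (0.0375), and hspa4b without JM83 (0.0265).

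**Figure D3:**
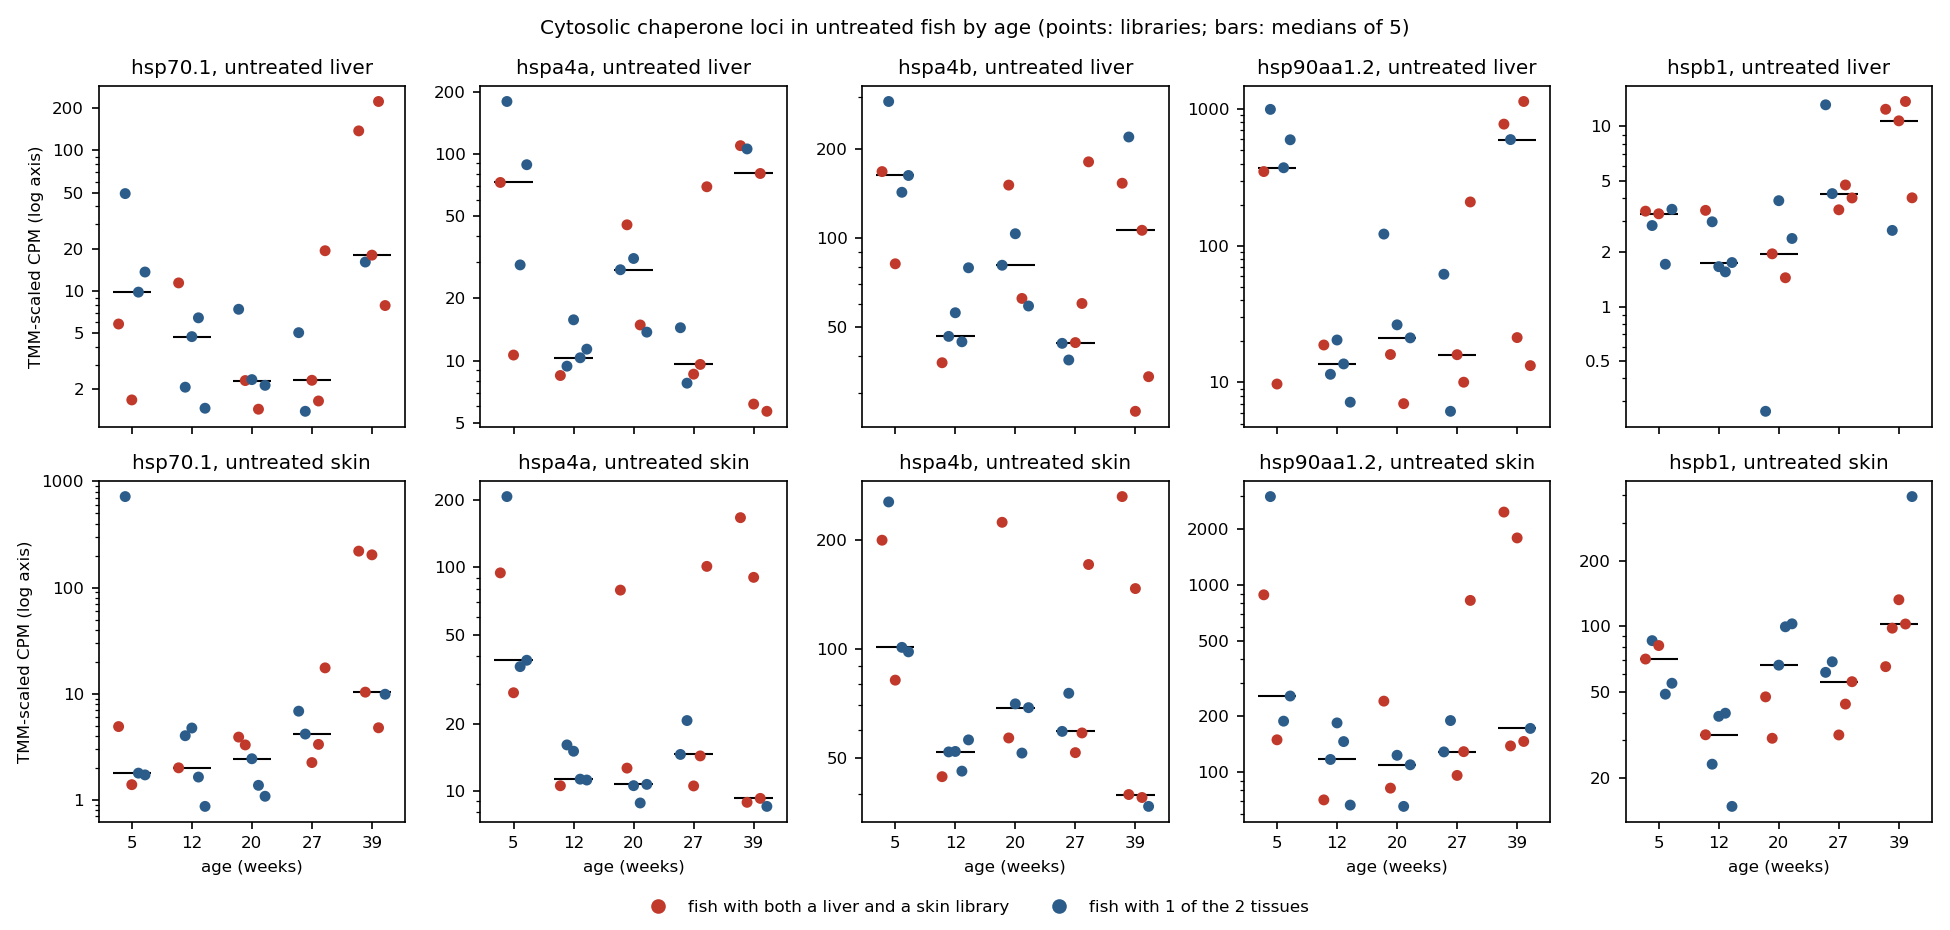
CPM (log scale) of the 5 genes in untreated liver and skin at 5, 12, 20, 27 and 39 weeks, with 1 point per fish, a bar at the group median and fish that gave both tissues in red. Livers of 12 weeks hold 7.16 to 20.4 CPM of hsp90aa1.2, and those of 39 weeks fall apart into 3 fish with 598.8 to 1138 and 2 with 13.3 and 21.3 CPM.

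In untreated skin all 5 genes were called lower at 12 than at 5 weeks, but none of them without the 5-week skin of JM102. The median of hsp70.1 was not lower, at 2.01 CPM at 12 and 1.79 CPM at 5 weeks. For hspa4a the 12-week skins had 10.5, 16.0, 15.0, 11.3 and 11.2 CPM, against 94.5, 207.4, 27.5, 36.0 and 38.4 CPM at 5 weeks, without overlap (-2.65 ± 0.89, adjusted p = 0.0263). For hspa4b they had 44.5 to 56.2 CPM, against 82.1 to 254.3 CPM (-1.55 ± 0.53, adjusted p = 0.0285), and for hspb1 14.8 to 39.8 CPM, against 48.7 to 85.9 CPM (-1.20 ± 0.41, adjusted p = 0.0271), again with the ages apart. For hsp90aa1.2 the 12-week skins had 71.1, 116.9, 183.3, 145.7 and 66.7 CPM, against 886.1, 2967, 148.9, 187.3 and 255.2 CPM at 5 weeks (-2.93 ± 0.91, adjusted p = 0.0177), which overlapped. Summed over 5 erythrocyte loci, 12-week skins held 229.2 to 938.0 CPM, against 1313 to 3606 CPM at 5 weeks, and the part of this in the chaperone values was not tested.

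For hsp70.1 a single fish carried the difference. The 12-week skins had 2.01, 4.03, 4.76, 1.64 and 0.870 CPM, and the 5-week skins 4.91, 720.2, 1.39, 1.79 and 1.72 CPM, where 720.2 CPM belonged to JM102, whose 281.7 RPKM was the highest of hsp70.1 in all 185 libraries. The log2 change was -5.77 ± 1.59 (adjusted p = 0.00866) with JM102 and 0.12 (adjusted p = 0.945) without it. Skin of JM102 had the highest hspa4a, hspa4b, hsp90aa1.2 and hspb1 of its age as well. Without JM102 0 of the 5 genes were called, at -1.94 for hspa4a (adjusted p = 0.109), -1.26 for hspa4b (0.0945), -1.66 for hsp90aa1.2 (0.141) and -1.11 for hspb1 (0.0655). The 5 calls compare with 31.2% of 18925 genes called, 0 members being higher. Leaving out JM100, JM104, JM109, JM110, JM112 or JM116 each ended 1 or 2 of the calls of hspa4a, hspa4b and hspb1 (adjusted p from 0.0501 to 0.073), while hsp70.1 and hsp90aa1.2 stayed called.

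At 39 weeks hspb1 was higher in skin than at both younger ages. Skins had 65.2, 98.0, 132.4, 102.4 and 395.0 CPM in JM1, JM13, JM15, JM18 and JM24, against 31.7, 23.2, 38.5, 39.8 and 14.8 CPM at 12 weeks, without overlap (2.42 ± 0.42, adjusted p = 5.76e-05). Against the 70.7, 85.9, 81.5, 48.7 and 54.7 CPM of 5-week skins the log2 change was 1.22 ± 0.40 (adjusted p = 0.0142), the only call among the 5 genes where 54.5% of all genes were called. Without JM24 the difference from 5 weeks was 0.54 (adjusted p = 0.161) and that from 12 weeks 1.75 (0.000142). Summed over 20 muscle loci, of which ckma and myhz2 had no read, the skin of JM24 held 93606 CPM, the highest of the 25 untreated skins, and the other 39-week skins 30738 to 63721 CPM, against 23236 to 40994 CPM at 12 weeks and 34992 to 50605 CPM at 5 weeks. The mean log2 CPM of muscle loci did not follow this order. It was 7.22 in JM24 and 4.82 to 6.38 in the other 39-week skins. Skins of 12 weeks had 6.5 to 7.34 and those of 5 weeks 6.36 to 7.81, and the 27-week skin of JM62 had 8.18. Summed over 13 macrophage loci, 39-week skins held 899.4 to 1614 CPM, against 442.3 to 759.6 CPM at 12 and 341.0 to 680.1 CPM at 5 weeks. The part of either list in hspb1 was not tested.

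The 39-week skins of JM1 and JM15 set the values of the other genes. For hsp70.1 skins had 220.6 and 203.6 CPM in these 2 fish and 10.4, 4.78 and 9.90 CPM in JM13, JM18 and JM24, against 0.870 to 4.76 CPM at 12 weeks. All 5 older skins were above every 12-week skin, 2 of them by far (5.07 ± 1.54, adjusted p = 0.00879). For hsp90aa1.2 JM1 and JM15 had 2452 and 1784 CPM and the others 138.1, 145.9 and 171.3 CPM, against 66.7 to 183.3 CPM at 12 weeks (3.01 ± 0.91, adjusted p = 0.00867). For hspa4a they had 166.9 and 90.2 CPM and the others 8.51 to 9.24 CPM, against 10.5 to 16.0 CPM at 12 weeks (2.14 ± 0.87, adjusted p = 0.0444).

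Together with hspb1 these made 4 of 5 genes higher at 39 than at 12 weeks, where 49.4% of all genes were called, and hspa4b did not pass (1.06 ± 0.52, adjusted p = 0.0931). Without JM1 and JM15 only hspb1 was called (2.75, adjusted p = 5.23e-05), the values of hspa4a (-0.53) and hspa4b (-0.38) turned negative, and hsp70.1 (1.64, adjusted p = 0.356) and hsp90aa1.2 (0.38, adjusted p = 0.729) did not pass. The call of hspa4a also ended without JM104, JM109, JM110, JM112, JM116, JM15 or JM1, with adjusted p from 0.0636 to 0.252, and hspa4b was called without JM24 (1.28, 0.0449). Values of hsp90aa1.2 and hsp70.1 were 2.26 and 4.42 without JM1 and 2.64 and 4.52 without JM15. Against 5-week skins, removing JM1 and JM15 gave 5 calls in place of 1, with hspa4a at -3.18 (adjusted p = 0.00601), hspa4b at -1.93 (0.00269), hsp90aa1.2 at -2.55 (0.0221), hsp70.1 at -4.13 (0.0437) and hspb1 at 1.54 (0.00489), while hsp70.1 was 5.19 (0.000349) without JM102 and -0.70 with it.

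At 20 and 27 weeks 1 skin each stood out. JM79 had 79.1 CPM of hspa4a, against 8.82 to 12.6 CPM in the other 20-week skins, and JM83 101.0 CPM, against 10.5 to 20.6 CPM in the other 27-week skins. Over all 5 ages hsp70.1 (adjusted p = 0.00114), hsp90aa1.2 (0.00556) and hspb1 (0.00032) differed, against 66.5% of all genes. The gene hspa4a passed without JM79, JM83, JM13, JM18 or JM24 (adjusted p from 0.0105 to 0.0464), and hspa4b without JM79 (0.0404) or JM1 (0.0452). Whether age changes differed between skin and liver was tested directly. Of the 5 genes 0 differed in the change from 12 to 39 weeks and 0 in that from 5 to 12 weeks by edgeR or DESeq2, where edgeR called 21.5% and 2.72% of all genes, and 1 of the 10 values had an unadjusted p under 0.05, hsp70.1 between 12 and 5 weeks (-4.12 ± 1.72, skin minus liver). These fits did not pair the tissues of the 12 fish that gave both. With fish as a random block in limma, an alternative chosen after the data were seen, 0 of the 5 genes differed in either change (adjusted p from 0.5 to 0.992), and this value of hsp70.1 was -0.30.

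Under rotenone the exchange factors hspa4a and hspa4b rose in liver and skin, and hspa4a in brain. Rotenone livers had 31.7, 69.0, 47.0, 64.0 and 51.2 CPM of hspa4a, against 15.3, 8.30, 10.2, 7.64 and 23.7 CPM in vehicle livers of the same age (2.01 ± 0.36, adjusted p = 0.00223). For hspa4b rotenone livers had 148.7, 178.2, 131.3, 165.8 and 167.1 CPM, against 59.3, 48.8, 63.3, 49.9 and 75.3 CPM in vehicle livers (1.42 ± 0.20, adjusted p = 0.0012). For both genes all 5 rotenone livers were above all vehicle livers. The mean log2 CPM of 13 macrophage loci also separated these livers, at 3.03 to 4.36 under rotenone, against 4.51 to 5.79 in vehicle, while their summed CPM overlapped (358.6 to 979.6, against 708.6 to 2450). The part of macrophage RNA in these values was not tested.

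Rotenone skins had 51.1, 77.6, 66.6, 85.1 and 109.4 CPM of hspa4a, against 23.9, 13.8, 46.3, 23.6 and 14.8 CPM in vehicle skins (1.67 ± 0.34, adjusted p = 0.00736). They had 126.8 to 178.7 CPM of hspa4b, against 56.1 to 103.6 CPM in vehicle skins (0.99 ± 0.19, adjusted p = 0.00575). For hsp90aa1.2 rotenone skins had 382.4, 342.0, 378.9, 386.3 and 591.9 CPM, against 145.2, 65.8, 178.8, 176.8 and 80.0 CPM (1.69 ± 0.29, adjusted p = 0.00338). The groups did not overlap for any of these 3 genes, and how common this was among all genes was not counted. The 2 skins with testis germ cell RNA, MR30 and MC7, were the highest of their groups in hspa4a (109.4 and 46.3 CPM) and hsp90aa1.2 (591.9 and 178.8 CPM), whereas MR30 was the lowest of its group in hspa4b (126.8 CPM). Without both skins the 3 genes were still called, at 1.88 for hspa4a (adjusted p = 0.00213), 1.12 for hspa4b (0.00396) and 1.67 for hsp90aa1.2 (0.00305).

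Rotenone brains had 95.7, 118.0, 111.4, 116.6 and 108.9 CPM of hspa4a, against 72.8, 70.9, 66.4 and 71.2 CPM in 4 vehicle brains and 103.4 CPM in the fifth, from MC10, so that the groups overlapped through that fish alone (0.52 ± 0.11, adjusted p = 0.0126). MC10 was also the highest vehicle brain in hspa4b (203.9 CPM against 127.5 to 138.9 CPM), hsp90aa1.2 (843.3 CPM against 454.4 to 584.3 CPM), hsp70.1 and hspb1. Its mean log2 CPM of 12 neuron loci was 6.56, the lowest of all 15 brains, where the others had 6.95 to 7.32, and its sum over 5 erythrocyte loci was 3586 CPM, against 251.0 to 675.5 CPM in the other vehicle brains of its age. Immediate early genes, with 3 of 17 lower and 0 higher under rotenone, had a mean log2 CPM of 3.48 to 4.25 in rotenone and 4.30 to 4.54 in vehicle brains. The part of these lists in the chaperone values was not tested. Without MC10 3 genes were called in brain, hspa4a (0.64, adjusted p = 2.64e-05), hspa4b (0.48, adjusted p = 0.000124) and hsp90aa1.2 (0.34, adjusted p = 0.0103).

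The calls numbered 1 of 5 genes in brain, 2 in liver and 3 in skin, all higher under rotenone, where 8.69%, 26.0% and 12.3% of all genes were called in either direction. In liver hsp90aa1.2 was 11.2, 55.0, 26.0, 38.8 and 107.8 CPM under rotenone, against 9.30, 5.34, 21.95, 18.5 and 42.8 CPM in vehicle, and did not pass (1.29 ± 0.60, adjusted p = 0.12), but did without the vehicle liver of MC9 (1.8, adjusted p = 0.0413). Skins had 6.38, 5.97, 8.71, 7.95 and 11.4 CPM of hsp70.1 under rotenone, against 3.15, 2.98, 3.94, 10.8 and 4.04 CPM in vehicle, where MC8 alone reached the rotenone range. The gene hsp70.1 did not pass in any tissue, at 0.34 ± 0.26 in brain (adjusted p = 0.476), -0.01 ± 0.95 in liver (0.996) and 0.70 ± 0.35 in skin (0.22). In liver its median was 8.04 CPM under rotenone and 3.48 CPM in vehicle, where MC9 had 49.4 CPM, and all 5 rotenone livers were above the vehicle median. In skin, however, hsp70.1 passed without the vehicle skin of MC8, the highest of its group at 10.8 CPM (1.19, adjusted p = 0.0146). Brains had 12.4 to 21.6 CPM of hspb1 under rotenone and 20.9 to 30.1 CPM in vehicle, with only the brain of MR30 inside the vehicle range. For hspb1 the log2 values were -0.64 ± 0.25 in brain (adjusted p = 0.12), -2.58 ± 0.95 in liver (0.0568) and -0.20 ± 0.43 in skin (0.8). In liver hspb1 passed without MC6 (-2.87, adjusted p = 0.0379), MC9 (-2.88, 0.0248) or MC10 (-2.88, 0.028), which were the low vehicle livers. The medians went the other way, at 1.38 CPM under rotenone and 1.06 CPM in vehicle, and all 5 rotenone livers were above the vehicle median. The vehicle livers of MC7 and MC8 set the negative value, with up to 37.4 CPM, and without them it was positive, as given below.

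**Figure D4:**
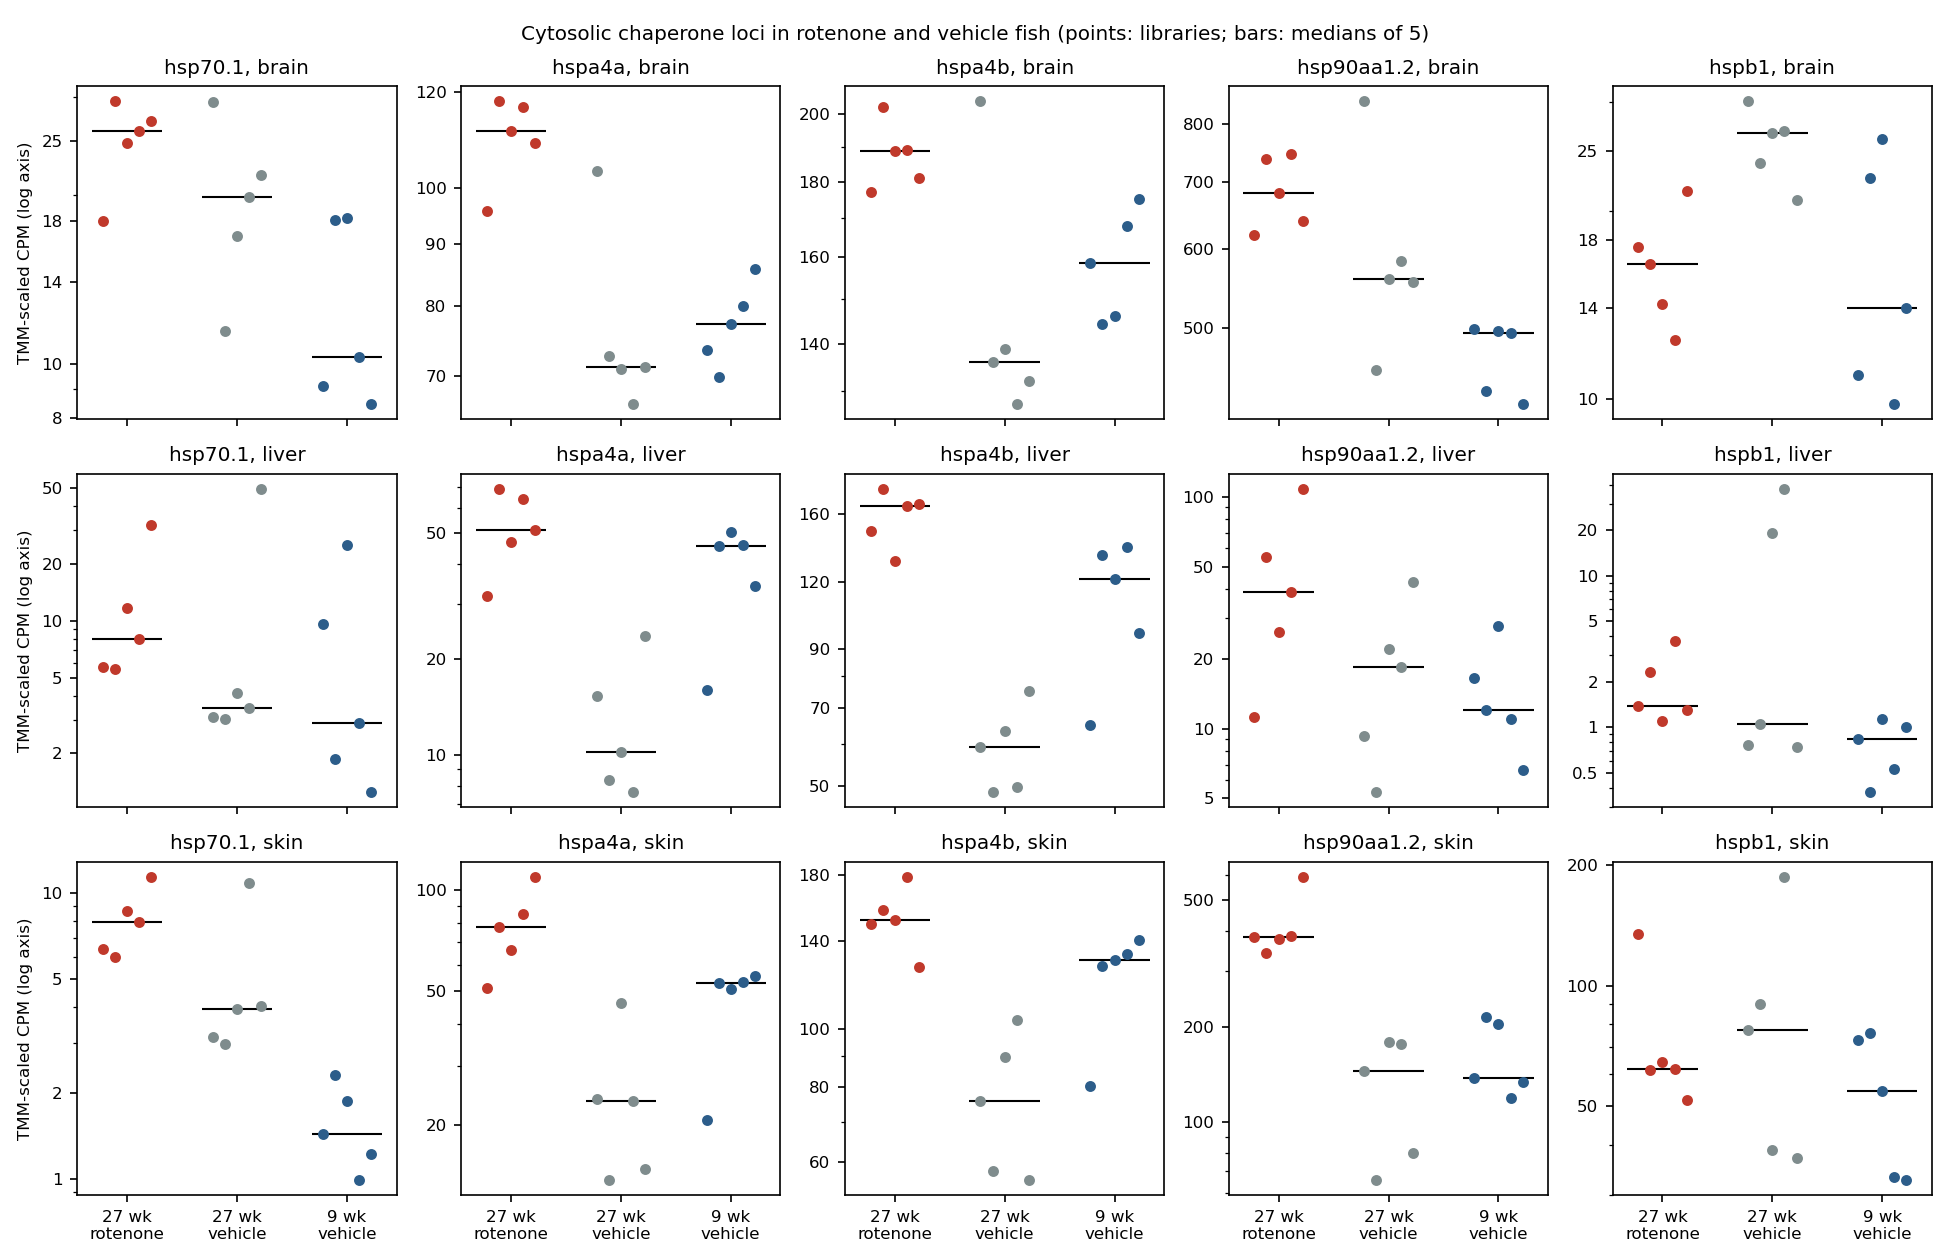
CPM (log scale) of the 5 genes in brain, liver and skin of rotenone fish of 27 weeks, vehicle fish of 27 weeks and vehicle fish of 9 weeks, with 1 point per fish and a bar at the group median. In liver and skin all rotenone points of hspa4a and hspa4b lie above all vehicle points of 27 weeks.

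The size of the rotenone effect differed between tissues for hspa4a (adjusted p = 0.0233) and hspa4b (0.0177) in a test of any difference between brain, liver and skin with fish as block. This test called 6.45% of all genes, and for the same 2 genes the log2 values above were 0.52 and 0.34 ± 0.12 in brain, 2.01 and 1.42 in liver and 1.67 and 0.99 in skin. The other 3 genes did not pass, with adjusted p of 0.158 for hsp90aa1.2, 0.605 for hspb1 and 0.967 for hsp70.1.

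Between vehicle fish of 27 and 9 weeks the exchange factors were lower in liver. Livers of 27 weeks had the values given above for hspa4a (7.64 to 23.7 CPM), against 16.0, 45.5, 50.6, 45.9 and 34.2 CPM at 9 weeks (-1.56 ± 0.36, adjusted p = 0.0162), and those for hspa4b (48.8 to 75.3 CPM), against 64.9, 134.5, 121.2, 139.1 and 96.5 CPM (-0.91 ± 0.20, adjusted p = 0.0153). In both genes 4 of 5 livers of 9 weeks were above every 27-week liver and MC1 was not. The liver of MC1 held 1387 CPM summed over the macrophage list, against 180.7 to 639.6 CPM in the other 9-week livers, and livers of 27 weeks 708.6 to 2450 CPM. In skin hspa4b was 56.1 to 103.6 CPM at 27 weeks, against 80.3, 127.1, 130.3, 133.1 and 140.3 CPM at 9 weeks (-0.67 ± 0.19, adjusted p = 0.0367), a call that was lost without MC2, MC3, MC4, MC5, MC6, MC9 or MC10 (adjusted p from 0.0535 to 0.107). Skin hspa4a was -0.93 ± 0.34 (adjusted p = 0.0906) and passed without MC1 (-1.11, 0.035), MC7 (-1.29, 0.0209) or MC7 and MR30 (-1.27, 0.012). MC1 was the lowest 9-week fish for hspa4a in liver and skin.

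In skin hsp70.1 was higher at 27 than at 9 weeks, with 3.15, 2.98, 3.94, 10.8 and 4.04 CPM, against 1.43, 2.32, 1.87, 0.993 and 1.22 CPM, without overlap (1.67 ± 0.37, adjusted p = 0.014). Mean log2 CPM of the macrophage list (4.97 to 6.11, against 4.26 to 4.79) and of the immediate early genes (4.16 to 4.89, against 3.65 to 3.96) separated the same 2 groups, and 5 of 16 immediate early genes were higher at 27 weeks and 0 lower. The part of these lists in hsp70.1 was not tested.

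In liver hspb1 was 0.769, 1.06, 19.1, 37.4 and 0.744 CPM in MC10, MC6, MC7, MC8 and MC9 of 27 weeks, against 0.375 to 1.14 CPM at 9 weeks (3.91 ± 1.02, adjusted p = 0.0255), so that 2 fish made the difference. The livers of MC7 and MC8 held 275.0 and 199.9 CPM summed over 20 muscle loci, against 30.1 to 73.6 CPM in the other 3 livers, with the muscle loci ckma and myhz2 without a read. Without both of them hspb1 was 0.12 (adjusted p = 0.908), and its rotenone value in liver was 1.2 in place of -2.58. Without MC2, MC3, MC4, MC5, MC7 or MC8 alone, the call was lost, with values of 2.80 to 4.09 and adjusted p from 0.0514 to 0.0765. The part of muscle RNA in hspb1 was not tested.

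Of the 5 genes, 3 were called in liver between 27 and 9 weeks, where 12.4% of all genes were, 2 in skin (10.5% of all genes) and 0 in brain (2.09% of all genes), where DESeq2 called 0 as well. Unadjusted p values under 0.05 were reached in brain by hsp90aa1.2 (0.36 ± 0.13), hsp70.1 (0.63 ± 0.26) and hspb1 (0.62 ± 0.25), with adjusted p of 0.18 to 0.234, and by 17% of all genes. Brain hspa4b was called without MC10 (-0.24, adjusted p = 0.0287). Without MC7 and MC8, an alternative chosen after the data were seen, 0 genes were called in liver, with hspa4a at -1.30 (adjusted p = 0.111) and hspa4b at -0.87 (0.091). The change from 9 to 27 weeks differed between tissues for hspa4a (adjusted p = 0.0354), where 5.77% of all genes were called.

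In fins hsp70.1 was the clearest change between the clips. Every 20-week clip came from a fish already clipped at 10 weeks, so age and the earlier clip cannot be told apart. At 20 weeks the clips held a lowest value of 3.00, a median of 9.66 and a highest of 55.7 CPM, against 1.98, 4.23 and 30.6 CPM at 10 weeks, and 40 of 45 fish were higher at 20 weeks. With fish as block the log2 change was 1.08 ± 0.11 (adjusted p = 1.42e-10). The median change was 1.14 in the 30 fish of the first batch named in the titles, of which 26 were higher, and 1.39 in the 15 fish of the second, of which 14 were. The highest fish at both ages was LS43, a short-lived one.

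The other calls in fins were smaller. For hspb1 20-week clips had 5.53, 14.5 and 42.5 CPM (lowest, median, highest), against 6.35, 12.2 and 22.3 CPM at 10 weeks, higher in 34 of 45 fish (0.36 ± 0.07, adjusted p = 0.000236). For hsp90aa1.2 they had 63.6, 260.3 and 787.3 CPM, against 37.4, 145.4 and 425.4 CPM, higher in 31 of 45 fish (0.69 ± 0.24, adjusted p = 0.0292). Fitted within batches, hsp90aa1.2 was 0.73 in the first (adjusted p = 0.118) and 0.60 in the second (0.186), hspb1 was 0.41 (0.00234) and 0.21 (0.169), and hsp70.1 was 0.96 (1.59e-06) and 1.28 (0.000412), so that all 3 were higher in both but hsp90aa1.2 passed in neither. Values for hspa4a were 15.6, 81.1 and 187.3 CPM, against 20.6, 67.4 and 205.3 CPM (0.23 ± 0.22, adjusted p = 0.503), and those of hspa4b 49.9, 160.6 and 307.2 CPM, against 60.3, 134.7 and 302.9 CPM (0.20 ± 0.16, adjusted p = 0.393). Thus 3 of 5 genes were called, all higher at 20 weeks, where 24.3% of all genes were called, and the ranges of the 2 ages overlapped for each gene.

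Values at the 2 clips were related in 4 of the 5 genes, positively in hsp70.1 and hspb1 and negatively in hspa4a and hspa4b. Only these 5 genes were tested in this way, so the share of all genes that would pass is not known. After removal of the means of lifespan group and batch, the 20-week value of hsp70.1 correlated with the 10-week value at r = 0.59 and rho = 0.60 over 45 fish (permutation tests, adjusted p = 0.0001 and 0.00015 over 5 genes, raw p = 2e-05 and 3e-05), at r = 0.46 in the first and 0.71 in the second batch, and at 0.52 without the 2 fish farthest from the median. For hspb1 r was 0.47 and rho 0.49 (permutation adjusted p = 0.00237 and 0.00182, raw p = 0.00095 and 0.00073), 0.49 and 0.42 within batches, and 0.54 without 2 fish. For hspa4b r was -0.40 and rho -0.38 (permutation adjusted p = 0.0105 and 0.0189, raw p = 0.00629 and 0.0113), -0.29 and -0.62 within batches, and -0.39 without 2 fish.

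For hspa4a the values were -0.34 and -0.35 (permutation adjusted p = 0.0281 and 0.0221, raw p = 0.0225 and 0.0176), -0.21 and -0.58 within batches, and -0.32 without 2 fish. For hsp90aa1.2 they were -0.23 and -0.21 (permutation adjusted p = 0.122 and 0.163). Within batches hsp90aa1.2 had -0.22 and -0.30.

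Within an age hspa4a and hspa4b moved almost as 1 gene across fish, at r = 0.98 and rho = 0.97 at 10 weeks and r = 0.97 and rho = 0.96 at 20 weeks. Each of these has a permutation p of 1e-05, the smallest that the permutations can give, and adjusted p of 2.86e-05 for r and 3.33e-05 for rho over 20 relations. Over the 45 clips hsp90aa1.2 followed hspa4b at r = 0.78 and 0.83 and hspa4a at r = 0.70 and 0.79 at 10 and 20 weeks, with permutation p equally small and r from 0.56 to 0.88 within batches. The pair of hsp70.1 and hspb1 had r = 0.28 at 10 weeks (permutation adjusted p = 0.09) and 0.58 at 20 weeks (2.86e-05). By r 11 of 20 relations passed, and 11 by rho, with r between -0.05 and 0.98. Pairs of other genes were not tested, so the share of all pairs that would pass is not known. Over all libraries hspa4a was as close to nmt1a, prp19 and api5 as to hspa4b (r = 0.95 each).

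In the vehicle and rotenone arm, where 15 fish gave 3 tissues, 0 of 15 relations of a gene between 2 tissues passed after removal of group means, with r from -0.02 to 0.38 and permutation adjusted p of 0.632 or more.

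**Figure D5:**
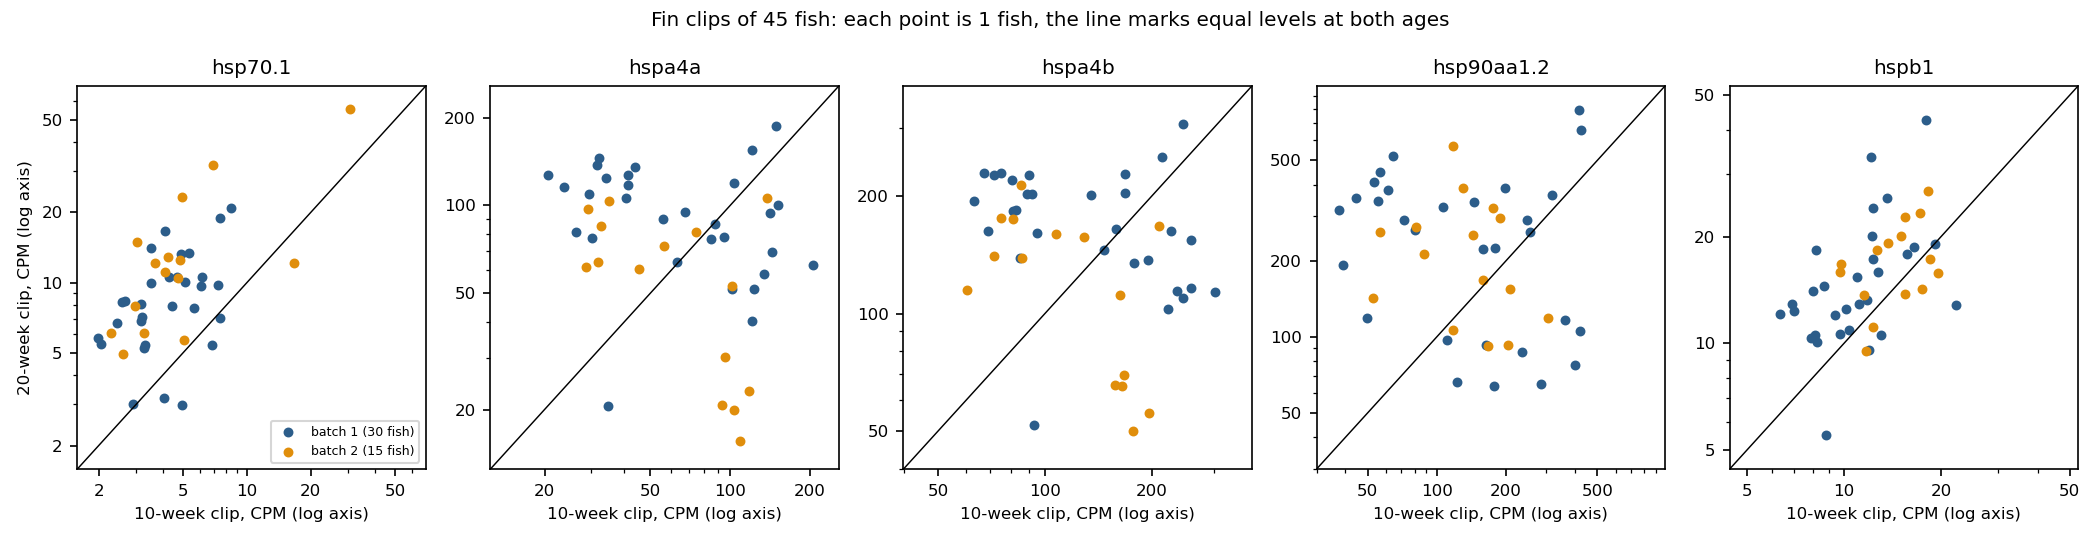
CPM of the 20-week clip against CPM of the 10-week clip (both log scales) for the 5 genes, with 1 point per fish, colours for the 2 batches (30 and 15 fish) and a line of equal levels. For hsp70.1, 40 of 45 points lie above the line, and for hspa4a and hspa4b many fish that are high at 1 age are low at the other.

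None of the 5 genes separated the lifespan groups. At 10 weeks hsp70.1 had a lowest, median and highest value of 2.45, 3.68 and 7.43 CPM in long-lived and 2.06, 4.43 and 16.6 CPM in middle fish, against 1.98, 4.87 and 30.6 CPM in short-lived fish. At 20 weeks they were 3.19, 9.66 and 23.2 CPM in long-lived and 3.00, 7.77 and 18.9 CPM in middle fish, against 3.03, 10.5 and 55.7 CPM in short-lived fish. The log2 values of hsp70.1 were -0.55 ± 0.29 and -0.42 ± 0.28 for long-lived against short-lived fish at 10 and 20 weeks and -0.22 ± 0.28 and -0.69 ± 0.28 for middle against short-lived fish.

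In these 4 comparisons edgeR called 0 of 5 genes and 0% of all genes, as did DESeq2, and the adjusted p of the 5 genes ran from 0.619 to 1. An unadjusted p under 0.05 was reached by 1 value, hsp70.1 in middle against short-lived fish at 20 weeks (0.0173), while 470 to 1476 of all genes reached it. The change between clips did not differ between lifespan groups for any of the 5 genes (adjusted p = 1 each, 0% of all genes called, 161 genes with an unadjusted p under 0.05 and 0 of the 5 among them).

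The rest of the chaperone system was described by 7 lists of other heat shock genes and their regulators, 92 loci in all, of which 78 to 84 were tested per comparison in liver, skin and brain. In liver at 12 against 5 weeks 16 of 82 were lower and 2 higher, 22% of them against 13.5% of all genes, with a median log2 change of -0.33. The lower ones included 6 of 17 in the list of HSP90 and its co-chaperones, among them the phosphatase PPP5C (-2.05 ± 0.41, adjusted p = 0.00256), and hspa14 (-1.19 ± 0.38, adjusted p = 0.0411), an HSP70-type protein of the ribosome. The heat shock factor hsf2 (Nfu_g_1_012722) was higher (1.65 ± 0.36, adjusted p = 0.0046). In skin 33 of 82 were lower and 5 higher at 12 than at 5 weeks (46.3% against 31.2% of all genes, median -0.60), among them all 13 loci of the endoplasmic reticulum and mitochondrial list with hspd1, the mitochondrial chaperonin, at -2.49 ± 0.52 (adjusted p = 0.00127). The lists were not refitted with any fish left out. Without the skin of JM102 none of the 5 members was called between these ages.

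In skin at that age 1 of 6 loci of the HSP70 and HSP110 list was higher, the constitutive hspa8 (0.47 ± 0.15, adjusted p = 0.0186), and 2 were lower, with hspa14 at -1.29 ± 0.34 (adjusted p = 0.00688). Of HSP90 and its co-chaperones 1 of 17 was higher, the constitutive hsp90ab1 (0.42 ± 0.16, adjusted p = 0.0496), and 9 were lower, with the cyclophilin PPID at -1.42 ± 0.27 (adjusted p = 0.000576). At 39 against 12 weeks 36 of 82 loci were higher in skin and 9 lower, a share of 54.9% near the 49.4% of all genes (median 0.61), with the HSP90 activator ahsa1 at 1.39 ± 0.31 (adjusted p = 0.000774), the chaperonin subunit cct4 at 1.47 ± 0.19 (adjusted p = 1.44e-06) and hsf2 (Nfu_g_1_012772) lower by -1.61 ± 0.30 (adjusted p = 0.000134). In liver 0 of 82 were called between these ages by edgeR (median 0.38). The skin counts include JM1 and JM15, without which hspb1 alone of the members was called, and the lists were not refitted without them.

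Under rotenone 34 of 78 loci were higher in liver and 3 lower (47.4% against 26.0% of all genes, median 0.44), and 31 of 84 were higher in skin and 2 lower (39.3% against 12.3% of all genes, median 0.48), with medians of -0.08 and 0.07 over all genes. In both tissues 12 of 13 loci of the endoplasmic reticulum and mitochondrial list were higher, with hspa9, the mitochondrial HSP70, at 1.39 ± 0.24 in liver (adjusted p = 0.00195) and hyou1, an HSP110-type protein of the endoplasmic reticulum, at 1.5 ± 0.20 in skin (adjusted p = 0.00205). Of HSP90 and its co-chaperones 8 of 16 were higher and 1 lower in liver, and 9 of 17 higher and 1 lower in skin, with ptges3a, the p23 co-chaperone, at 1.55 ± 0.25 in liver (adjusted p = 0.00164) and fkbp5 at -1.79 ± 0.60 (adjusted p = 0.0402). In brain 5 of 83 were higher and 2 lower, 8.43% of them where 8.69% of all genes were called.

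The hsf2 locus Nfu_g_1_012772 was lower under rotenone in all 3 tissues, by -0.53 ± 0.15 in brain (adjusted p = 0.0388), -1.36 ± 0.33 in liver (0.00917) and -0.69 ± 0.19 in skin (0.0269). Rotenone values of the other hsf2 locus (Nfu_g_1_012722) are not given. Mean log2 CPM of the heat shock factor list was 3.02 in vehicle skin MC7 and 3.5 in rotenone skin MR30, those with testis germ cell RNA. The other skins of this arm had 1.19 to 1.84, and the part of testis RNA in the skin value was not tested. Between vehicle fish of 27 and 9 weeks 21 of 78 loci were lower in liver and 1 higher (28.2% against 12.4% of all genes), and 16 of 84 were lower in skin and 1 higher (20.2% against 10.5% of all genes), while in brain 0 of 83 were called. The 1 higher in liver was hspb7, another small heat shock protein, known from heart and skeletal muscle (5.80 ± 1.34, adjusted p = 0.0168). Against the same vehicle livers of 27 weeks, hspb7 was lower under rotenone (-3.36 ± 1.15, adjusted p = 0.0429). These vehicle livers include MC7 and MC8, the highest in muscle loci. Values of hspb7 in single fish are not given, and the part of muscle RNA in them was not tested. In fins 9 of 81 loci were higher and 3 lower at 20 than at 10 weeks, a share of 14.8% below the 24.3% of all genes. Among the higher were hspa8 at 0.12 ± 0.03 (adjusted p = 0.00743) and hsf1 at 0.23 ± 0.06 (adjusted p = 0.00215). Among the lower were HSPA12A (Nfu_g_1_006971) at -0.38 ± 0.08 (adjusted p = 0.000186) and dnajb5 (Nfu_g_1_009125) at -0.48 ± 0.10 (adjusted p = 0.000222).

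Genes with the closest pattern were sought over all 185 libraries, after removal of group means, among the 13520 loci whose mean log2 CPM reached 1. These correlations are descriptions over libraries that share fish and batches, and carry no test. Closest to hspa4a were nmt1a, ptges3a, hspa4b, prp19 and api5, each at r = 0.95. Closest to hspa4b were hspa9 (0.96) and ptges3a, mars, hspa4a and prep (each 0.95).

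Closest to hsp90aa1.2 were tbcb and dnaja1l (both 0.85), ahsa1l (0.83), NFE2L1 (1 of 2) and dnajb1a (both 0.82), and closest to hsp70.1 were hsp90aa1.2 (0.65), the dnaja1l loci (0.64 and 0.58), dnajb1a and NFE2L1 (1 of 2) (both 0.57). The J proteins dnaja1l and dnajb1a stimulate the ATPase of HSP70, and ahsa1l that of HSP90. For hspb1 the closest were itga6a and actn2 (both 0.64), C17H15orf52 (0.63), hm:zewp0073 (0.62) and MYOM1 (1 of 2) (0.61), of which actn2 and MYOM1 encode proteins of the muscle sarcomere. Among the 5 genes themselves hspb1 was the one apart over all libraries, with r of -0.10 to 0.12 to the other 4, while hsp90aa1.2 had 0.79 to hspa4a and 0.75 to hspa4b. This did not hold in the fin clips of 20 weeks, where hspb1 had r = 0.58 to hsp70.1.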

How the data were processed

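RNA-seq of 185 libraries was analysed from deposited tables. Per the submitters' processing notes CASAVA 1.8.0 and 1.8.2, bcl2fastq 1.8.4, TopHat2 2.0.6 and featureCounts 1.4.3-p1 were used, with the genome build not given in the sources used here. Raw read counts for 23564 loci and a table of RPKM were deposited by the authors, and both imply 1 length per gene (within 1 percent in 100.0% of values). Counts were tested with edgeR 4.0.16 in R 4.3.3: TMM scaling, filterByExpr, robust quasi-likelihood fits and Benjamini-Hochberg adjustment over all genes tested. DESeq2 1.42.0 was an alternative, as was limma 3.58.1 (voom with a random block for fish, within-fish correlation 0.32) for skin against liver, and 12 fits gave 27 comparisons. Untreated liver, untreated skin and each tissue of the vehicle and rotenone arm were fitted separately over all their groups, fins with a batch term for lifespan and with fish as block for age. Correlations used log2 CPM (prior count 2) and 100000 permutations. Python 3.11.15, numpy 2.4.6, pandas 2.3.3, scipy 1.17.1 and matplotlib 3.10.9 were used.

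The fish identifier pairs tissues and clips of the same animal, and replicates are separate fish. No 2 libraries of a group agreed within sampling noise, chi-square divided by its degrees of freedom being 11.11 in the closest pair. Text names the 5 members, from each list the called locus with the smallest adjusted p per direction, and the 5 loci most like each member. Members and lists were chosen with earlier results of these data known. The fits were tested on simulated data with the same spread for every gene and no outlying fish, so error rates for genes as variable as these 5 are not shown. The alternatives numbered 61 planned and 5 added after the data were seen. Total counts of 14970721 to 54947376 per library set the counting precision, and counts ranged from 9 to 17140 for hsp70.1 and hspb1 and from 132 to 70609 for the other 3 genes. No sequences are shown.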

Additional observations from a re-analysis of the deposited data

Results flagged for a closer look

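In 15 of 95 sets of 5 values, each of 1 gene in 1 group of 5 fish, 1 value lay far from the other 4. The measure was Dixon's ratio of gap to range on CPM, with a limit of 0.71. The sets share fish between genes and CPM are skewed, so no number expected by chance is given. For hsp70.1 these were the skin of JM102 at 5 weeks (720.2 CPM), the vehicle liver of MC9 (49.37 CPM) and the vehicle skin of MC8 at 27 weeks (10.84 CPM). For hspb1 they were the untreated 27-week liver of JM61 (13.17 CPM) and the rotenone skin of MR26 (134.8 CPM). For hsp90aa1.2 they were the rotenone skin of MR30 (591.9 CPM), which also held 1768 CPM of testis germ cell loci against 6.823 to 11.23 CPM in the other rotenone skins, and, as a low value, the 5-week liver of JM103 (9.726 CPM), which held 89064 CPM of ovary, yolk and chorion loci against 5.934 to 20.89 CPM in the other 5-week livers.

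The exchange factors hspa4a and hspa4b were far from the group in the same 4 samples. The untreated 27-week liver of JM83 had 69.28 CPM of hspa4a and 180.8 CPM of hspa4b, and the 20-week skin of JM79 had 79.09 and 223.5 CPM. The vehicle brain of MC10 at 27 weeks had 103.4 and 203.9 CPM beside 3586 CPM of erythrocyte loci, and the vehicle skin of MC1 at 9 weeks was low, with 20.76 and 80.33 CPM.

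Effects that differed between brain, liver and skin by edgeR's quasi-likelihood test were the rotenone effect on hspa4a (adjusted p = 0.0233) and hspa4b (adjusted p = 0.0177) and the difference between 27 and 9 weeks in vehicle for hspa4a (adjusted p = 0.0354). The part of these markers and other causes of these values were not tested.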

How the results depend on the processing

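Apart from left-out fish, counts of called members stayed within 1.5 times in 129 cases and moved in 15, and single-gene results kept direction and side of the threshold in 537, with 22 gaining a call, 21 losing one and 20 changing sign. Where a change is given below, the cause was not tested. Other scaling (RLE) shifted the median of all genes by at most 0.056.

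Members called were 1 for liver 12 against 5 weeks without libraries labelled w0w1 (3 with them). The meaning of this suffix is not given. Livers with it were JM100, JM101, JM83 and JM15, all high in hsp90aa1.2 (349.4, 996.2, 209.3 and 1138 CPM), and no 12-week liver had it. Livers JM97, JM98, JM1 and JM12 were high without it. Skins with it were JM116, JM79, JM88, JM62 and JM13, of which only JM79 was high in hspa4a. The part of the label in these values was not tested. DESeq2 called 2 at 39 against 5 and 4 at 39 against 12 weeks in liver (0 by edgeR), and 2 for brain rotenone (1), as did the fit of those 2 groups alone. For skin 27 against 9 weeks that fit called 1 (2). The shares of all genes called by DESeq2 are not given here. Without JM1 and JM15 the calls were 1 for any age in liver (3), 5 at 39 against 5 (1) and 1 at 39 against 12 weeks (4) in skin, and 5 for any age in skin (3). Without MC7 and MC8 they were 0 for liver 27 against 9 weeks (3). Scaling to total counts gave 5 for brain against skin (3). In fins 20 against 10 weeks called 1 within batch 2 (3), where hspa4a was -0.31 and hspa4b -0.09.

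With 1 fish left out in turn, calls ranged from 1 to 3 for liver 12 against 5 weeks, 0 to 1 for 39 against 5 and for 39 against 12, 3 to 5 for any age in liver and skin, 0 to 5 for skin 12 against 5, 0 to 2 for 39 against 5, 0 to 1 for brain 27 against 9, 1 to 3 for brain rotenone, 2 to 4 for liver rotenone and 1 to 3 for skin 27 against 9 weeks.

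Signs changed as follows. At 39 against 5 weeks in liver hsp90aa1.2 was -0.37 without livers JM103 and JM100 and -1.15 without JM1 and JM15, hspa4a 0.44 without w0w1 libraries and hsp70.1 -0.21 without JM1 and JM15. Without these 2 fish skin hsp90aa1.2 at 39 against 5 weeks was -2.55, and at 39 against 12 weeks hspa4a was -0.53 and hspa4b -0.38. Liver rotenone values of hsp70.1 were 0.02 by RLE, 0.02 by DESeq2 and 0.01 without a filter, and hspb1 was 1.2 without MC7 and MC8. On total counts brain against liver was 1.25 for hspa4a, 0.68 for hspa4b and 1.24 for hsp70.1, skin against liver 0.28 for hspa4a and 0.12 for hspa4b, and brain against skin 0.56 for hspa4b.

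Ranges over left-out fish that crossed 0 were, in liver at 39 against 5 weeks, -0.62 to 0.31 for hspa4a and -0.37 to 0.64 for hsp90aa1.2. In skin they were -6.09 to 0.12 for hsp70.1 at 12 against 5 weeks, and at 39 against 5 weeks -1.47 to 0.21 for hspa4a, -1.35 to 5.19 for hsp70.1 and -0.67 to 1.34 for hsp90aa1.2. For 27 against 9 weeks they were -0.13 to 0.04 for hspa4a in brain, and -0.11 to 0.76 for hsp90aa1.2 and -1.25 to 1.69 for hsp70.1 in liver. Rotenone gave -0.68 to 1.86 for hsp70.1 in liver and -0.53 to 0.30 for hspb1 in skin. Tissues gave -0.60 to 0.44 for hsp70.1 between brain and liver and -0.02 to 0.37 for hspa4a between brain and skin.

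The pairing by fish comes from the labels. Without the replicate block 2 members differed between tissues at 27 against 9 weeks (1 with it), hspa4a and hspb1 (adjusted p = 0.0354 and 0.0225 by edgeR), and DESeq2 also called 2. For the rotenone effect adjusted p without the block was 0.0351 for hspa4a and 0.0147 for hspa4b, and fin hsp70.1 was 1.06. With fish as a random replicate block, chosen after the data were seen, the 12 against 5 week change of hspa4a, skin minus liver, was -0.04 and 0 members were called in either change. The block changed no other call of a member.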
